A study of Prunus dulcis and Prunus persica and Prunus persica x Prunus dulcis with 15 samples.

Results

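The genes described here are 9 peach gene models that the study lists as possibly involved in DNA methylation. They are 4 models of DNA methyltransferases, 3 models of DNA demethylases and 2 models of RNA-dependent RNA polymerases, taken by their identifiers from the 22274 gene models of the count table, and all 9 were found there. Their transcription was measured by RNA-seq in fully expanded leaves of 3 genotypes grown in the field, with 3 libraries per genotype. The genotypes were almond (Prunus dulcis) cv Texas, peach (Prunus persica) cv Early Gold and an interspecific F1 hybrid between them. The trees were normally watered and untreated, and the leaves were taken at the end of September. A single hybrid genotype stands for the cross. The study calls the 3 libraries of a genotype biological replicates without saying whether they came from separate trees, so the p-values measure the spread between these libraries only.

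DNA methyltransferases add a methyl group to cytosines, and in plants different enzymes of this group maintain methylation in the CG and CHG contexts or set it anew in any context under the guidance of small RNAs. DNA demethylases of plants are DNA glycosylases that cut out the methylated base, and in Arabidopsis they keep genes near transposable elements (TEs) from being silenced. RNA-dependent RNA polymerases copy single-stranded RNA into double-stranded RNA, which is then cut into small RNAs. Both polymerase models are annotated as eukaryotic-type enzymes and are similar in sequence to Arabidopsis RDR1. The study describes RDR1 as involved in making small RNAs, in DNA methylation and gene regulation, and in defence against viruses. The sources used here do not say which Arabidopsis methyltransferase or demethylase each of the other 7 models resembles, so they are called by their identifiers.

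The libraries held from 7485763 to 17725455 read pairs, and the extremes were both almond libraries, with 7485763 pairs in library 1 and 17725455 in library 2. Almond library 3 held 8504083 pairs, and the hybrid and peach libraries held 11726323 or more. Reads of every genotype were aligned to peach transcripts, so almond reads carry more mismatches, and the part of this in any difference was not tested. The labels name no batch. Levels are given in CPM, which is the count of a gene model per 1000000 counts of the library after scaling with the TMM factors of edgeR. The CPM of different gene models are not compared with each other, since no transcript lengths were used here. In whole leaves, fewer cells of a type and less RNA per cell cannot be told apart. The leaf identity of the samples was not checked against marker genes, because the files do not pair gene models with gene names.

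Both RNA-dependent RNA polymerase models were lower in the hybrid than in either parent. The study picked them for this from the same libraries, so their values in the hybrid are a description and carry no test. For Prupe.1G332600.1 the level was 3.06, 5.74 and 2.01 CPM in almond libraries 1, 2 and 3. It was 0.314, 0.983 and 0.417 CPM in hybrid libraries 1, 2 and 3, and 1.23, 1.06 and 4.33 CPM in peach libraries 1, 3 and 4. The hybrid libraries were thus all below all parental libraries, but hybrid library 2 lay close to peach library 3. These levels rest on few reads, with 25 read pairs over the 3 hybrid libraries, 145 over the almond libraries and 100 over the peach libraries.

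For Prupe.1G334500.1 the level was 2.29, 6.68 and 2.13 CPM in almond libraries 1, 2 and 3. It was 0.754, 1.51 and 0.501 CPM in the hybrid libraries, and 2.34, 2.25 and 4.86 CPM in peach libraries 1, 3 and 4. Again each hybrid library was below each parental library. The total was 41 read pairs in the hybrid, 157 in almond and 143 in peach. Of all 19085 features tested, 1.76% had all hybrid libraries below all parental ones.

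**Figure D1:**
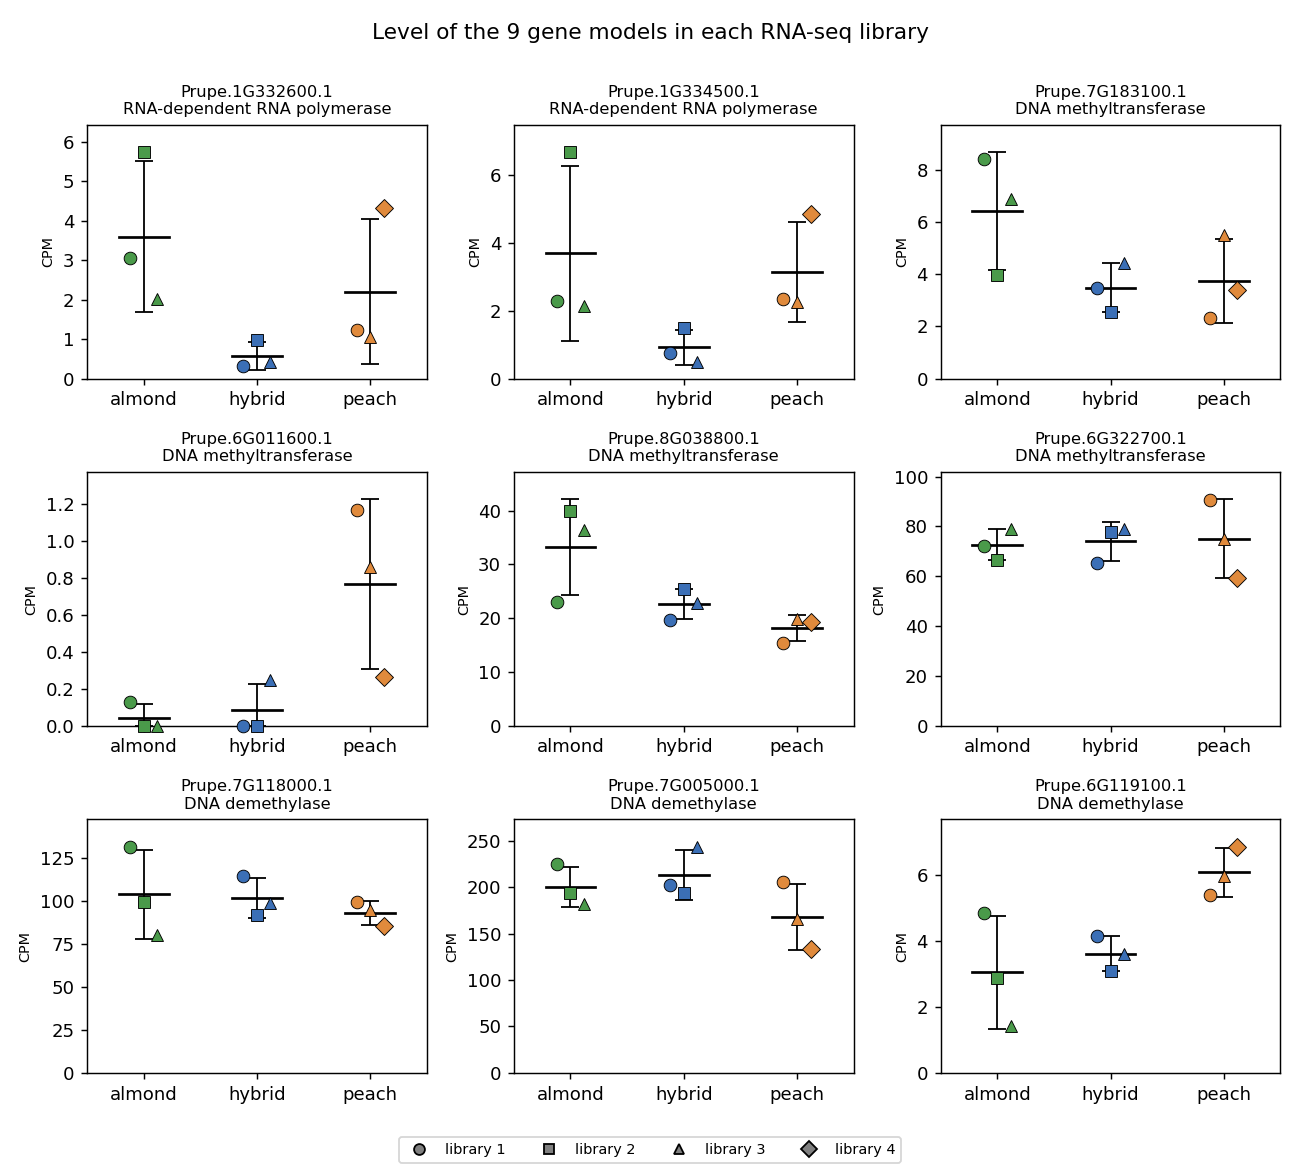
Each panel shows the CPM of 1 of the 9 gene models in the 9 RNA-seq libraries, grouped by genotype, with a linear axis from 0. Symbols give the library number, horizontal lines the mean and bars the SD of 3 libraries (cut off at 0). The hybrid libraries lie below all parental libraries for both polymerase models, almond library 2 and peach library 4 are the highest of their genotypes there, and Prupe.6G011600.1 is seen almost only in peach.

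The mean of Prupe.1G332600.1 in the hybrid was 0.572 ± 0.360 CPM (SD, n = 3), or 19.7% of the mean of both parents, while almond had 3.60 ± 1.92 CPM and peach 2.21 ± 1.84 CPM. In the fit over all 9 libraries, the log2 fold change of the hybrid was −2.65 ± 0.735 (SE) against almond and −1.94 ± 0.721 against peach. Prupe.1G334500.1 had a mean of 0.921 ± 0.523 CPM in the hybrid, or 26.9% of the mean of the parents, against 3.70 ± 2.58 CPM in almond and 3.15 ± 1.48 CPM in peach. Its log2 fold change was −2.01 ± 0.624 against almond and −1.76 ± 0.620 against peach. The comparisons of the hybrid with both parents share the hybrid libraries.

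Single libraries weighed on the size of these differences. Almond library 2 and peach library 4 had the highest levels of their genotypes for both models, and almond library 2 was also the deepest library. Without almond library 2, the log2 fold change of the hybrid against almond was −2.10 for Prupe.1G332600.1 and −1.22 for Prupe.1G334500.1. Without peach library 4, that against peach was −0.99 for Prupe.1G332600.1 and −1.31 for Prupe.1G334500.1. Hybrid library 2 was the highest of the hybrid, and without it the log2 fold changes against almond were −3.28 and −2.54, and against peach −2.56 and −2.29, in the same order. The hybrid remained lower in all of these values.

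Between peach and almond, neither polymerase model was called different. For Prupe.1G332600.1 the log2 fold change of peach against almond was −0.72 with an interval of 95% from −2.21 to 0.78 (adjusted p = 0.459, quasi-likelihood test of edgeR, p-values adjusted by Benjamini-Hochberg over all features). For Prupe.1G334500.1 it was −0.25 with an interval from −1.54 to 1.05 (adjusted p = 0.785 from the same edgeR test). These intervals include a difference of more than 2 times in either direction for the second model, and of more than 4 times towards almond for the first. Without almond library 2 the value of the second model turned to 0.52, and without peach library 4 that of the first became −1.65.

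Both polymerase models moved together from library to library. The Pearson correlation of their log2 CPM was 0.93 over the 9 libraries, and 0.89 after the mean of each genotype was taken away. The second value holds the spread among libraries of the same genotype alone. For the other pairs of the 9 models it ranged from −0.83 to 0.96, so a high value is not particular to this pair. The highest was that of Prupe.6G011600.1, which has few reads, with Prupe.7G005000.1. Of the read pairs counted on either model, Prupe.1G332600.1 took between 29.4% (exact 95% interval 10.3% to 56.0%, hybrid library 1) and 57.1% (41.0% to 72.3%, almond library 1), and these intervals, which cover counting error only, overlap. Whether reads could be shared between the 2 models was not tested, and their separate levels are uncertain to that extent.

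**Figure D2:**
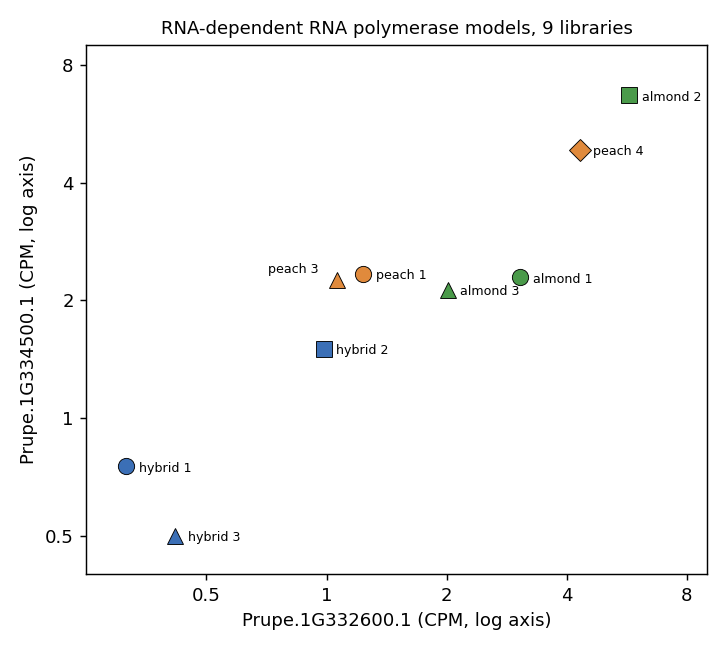
The CPM of Prupe.1G334500.1 is plotted against that of Prupe.1G332600.1 for each of the 9 libraries, with logarithmic axes, and each point carries its genotype and library number. The 3 hybrid libraries are at the lower left and almond library 2 and peach library 4 at the upper right, and the correlation of log2 values is 0.93.

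The numbers in the identifiers place both polymerase models on chromosome 1, and 17 gene models of the table have numbers between theirs. All 17 passed the filter on low counts. For 0 of them were all hybrid libraries below all parental ones, beside 1.76% of all features. In the edgeR fit, 0 of the 17 were called lower in the hybrid than almond, where 1.99% of all features were, and 0 were called lower than peach, where 2.31% were. Against peach, 2 of the 17 were called higher in the hybrid, beside 5.20% of all features. With so few models, the counts of 0 are near the shares over all features. The correlations of the 17 models with Prupe.1G332600.1 over the 9 libraries ranged from −0.88 to 0.76, and those with Prupe.1G334500.1 from −0.92 to 0.62.

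By a rule that takes the features with the highest correlation of log2 CPM, the models most alike Prupe.1G332600.1 over the 9 libraries were Prupe.1G357100.1 (r = 0.96) and Prupe.1G472300.1 (r = 0.96). Those most alike Prupe.1G334500.1 were Prupe.1G332600.1 itself (r = 0.93) and Prupe.6G043700.1 (r = 0.92). Among 19084 other features, 16 had a correlation above 0.9 with the first model and 4 with the second. The almond libraries 1, 2 and 3 had 10.4, 8.44 and 6.27 CPM of Prupe.1G357100.1, the hybrid libraries 1.82, 3.28 and 2.42 CPM, and peach libraries 1, 3 and 4 had 4.42, 3.71 and 10.4 CPM. The model was picked by this correlation, so a like order of libraries follows from the pick. Peach library 4 was the highest of peach here too, but library 1 and not library 2 was the highest of almond. The points of these correlations share libraries, depth and scaling, and these genes have no annotation in the sources used here.

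The DNA methyltransferase models that were tested did not pass the rule for a call in any comparison of genotypes. The rule asked for an adjusted p under 0.05 in the edgeR test together with a change of 1 or more on the log2 scale, up or down. Prupe.8G038800.1 came closest. Its level was 23.0, 39.9 and 36.5 CPM in almond libraries 1, 2 and 3, then 19.7, 25.4 and 22.8 CPM in hybrid libraries 1, 2 and 3, and 15.3, 19.8 and 19.4 CPM in peach libraries 1, 3 and 4. All peach libraries were below all almond libraries, as in 21.9% of all features, and the hybrid libraries overlapped with both.

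Between peach and almond, the log2 fold change of Prupe.8G038800.1 was −0.87 ± 0.216 (SE) with an interval of 95% from −1.34 to −0.40 (adjusted p = 0.00923 in the edgeR test). It passed the adjusted p but missed the minimum fold change, with means of 33.2 ± 8.92 CPM in almond and 18.2 ± 2.47 CPM in peach (SD, n = 3). An adjusted p under 0.05 at any fold was found for 32.7% of all features in this comparison. Over 18 alternatives the adjusted p of Prupe.8G038800.1 ranged from 0.00163 to 0.0489, and the direction was the same in each. Without almond library 1, the lowest of almond, the log2 fold change was −1.07 and the model was called lower in peach (edgeR, adjusted p = 0.00209). The hybrid, with 22.7 ± 2.84 CPM, was at 88.3% of the mean of the parents. Its log2 fold change was −0.55 (−1.02 to −0.08) against almond and 0.32 (−0.15 to 0.79) against peach, with adjusted p of 0.135 and 0.410 in the edgeR test.

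Prupe.7G183100.1 had 8.40, 3.97 and 6.87 CPM in almond libraries 1, 2 and 3, then 3.46, 2.56 and 4.42 CPM in hybrid libraries 1, 2 and 3, and 2.34, 5.50 and 3.39 CPM in peach libraries 1, 3 and 4. Almond libraries 1 and 3 were above all others, but almond library 2 lay within the range of the hybrid. The log2 fold change was −0.88 (−1.79 to 0.03) for the hybrid against almond and −0.77 (−1.68 to 0.14) for peach against almond, with adjusted p of 0.221 and 0.182 in the edgeR test. Against peach the hybrid differed by −0.11 (−1.01 to 0.80, adjusted p = 0.910 in the edgeR test). The intervals leave room for a difference from almond of more than 3 times, and for none.

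Prupe.6G322700.1 had nearly the same mean in the 3 genotypes. It had between 66.6 and 79.0 CPM in almond, between 65.1 and 79.1 CPM in the hybrid, and between 59.1 and 90.8 CPM in peach. The means were 72.6 ± 6.19, 74.0 ± 7.73 and 75.0 ± 15.8 CPM (SD, n = 3), in the same order, and the 3 ranges overlapped. The counts were 2441 read pairs in almond, 3172 in the hybrid and 3416 in peach. The interval of 95% for the ratio of the hybrid to almond ran from 0.790 to 1.32, and that for the ratio of the hybrid to peach from 0.765 to 1.27. The adjusted p were 0.946 and 0.966 in the edgeR test.

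Prupe.6G011600.1 was counted almost only in peach. It had 18, 13 and 4 read pairs in peach libraries 1, 3 and 4, against 1, 0 and 0 pairs in almond libraries 1, 2 and 3 and 0, 0 and 3 pairs in hybrid libraries 1, 2 and 3. Every peach library was above every library of the other genotypes, but peach library 4 exceeded hybrid library 3 by only 1 pair. In CPM these are 1.17, 0.862 and 0.266 in peach and at most 0.127 in almond and 0.25 in the hybrid. A count of 0 allows up to 3 read pairs, which is 0.166 and 0.355 CPM in almond libraries 2 and 3, and 0.189 and 0.197 CPM in hybrid libraries 1 and 2. The level of peach library 4 is thus below what a count of 0 allows in almond library 3. This model was the only one of the 9 that did not pass the filter on low counts, so it was not in the fit.

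Pooled over libraries, Prupe.6G011600.1 had 35 read pairs in peach, 1 in almond and 3 in the hybrid. The ratio of peach to almond per read pair sequenced was 25.2, with an exact interval of 95% from 4.23 to 1021, and that of peach to the hybrid was 10.7, from 3.36 to 54.1. These intervals cover counting error only and leave out the spread between libraries. In the two-sided exact permutation test of the CPM, 3 libraries against 3, p was 0.1 for peach against almond and 0.1 for the hybrid against peach, which is the smallest p that this design allows. When the filter was lifted, the adjusted p of the edgeR test was 0.145 for peach against almond and 0.356 for the hybrid against peach. The hybrid carries 1 peach genome beside 1 almond genome, and its mean level was 20.7% of the mean CPM of the parents, on 3 read pairs. Against the parental mean of log2 values the adjusted p was 0.880 in the edgeR test without the filter, and the percentage of the mean CPM was not tested.

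Among the DNA demethylase models, none was called either. Prupe.6G119100.1 had the highest levels in peach, with 5.39, 5.97 and 6.85 CPM in libraries 1, 3 and 4. It had 4.84, 2.87 and 1.42 CPM in almond libraries 1, 2 and 3, and 4.15, 3.08 and 3.59 CPM in hybrid libraries 1, 2 and 3. The peach libraries were above all libraries of both other genotypes, while almond and the hybrid overlapped. Over all features, 23.5% had each peach library above each almond library, and 16.3% had each hybrid library below each peach library.

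The mean of Prupe.6G119100.1 was 6.07 ± 0.736 CPM in peach, 3.61 ± 0.535 CPM in the hybrid and 3.04 ± 1.72 CPM in almond (SD, n = 3). The log2 fold change of peach against almond was 0.9999 with an interval from 0.10 to 1.90, and it did not pass the adjusted p of the edgeR test (0.0855). Almond library 1 was the highest of almond, and without it the log2 fold change was 1.48 and the model was called higher in peach (edgeR, adjusted p = 0.0215). The hybrid differed from peach by −0.75 (−1.64 to 0.14) and from almond by 0.25 (−0.65 to 1.15), with adjusted p of 0.289 and 0.776 in the edgeR test. The almond value rested on 102 read pairs, of which library 3 held 12.

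The other demethylase models had higher counts and narrower intervals. Prupe.7G118000.1 had 132, 99.6 and 80.5 CPM in almond libraries 1, 2 and 3, then 115, 92.0 and 99.0 CPM in hybrid libraries 1, 2 and 3, and 99.4, 94.8 and 85.5 CPM in peach libraries 1, 3 and 4. The ranges of the 3 genotypes overlapped, and the range of almond was the widest. The ratio of the hybrid to almond was 0.980 (0.747 to 1.29) and that of the hybrid to peach was 1.09 (0.833 to 1.43), with adjusted p of 0.95 and 0.720 in the edgeR test.

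Prupe.7G005000.1 had 224, 194 and 182 CPM in almond libraries 1, 2 and 3, then 202, 194 and 244 CPM in hybrid libraries 1, 2 and 3, and 205, 165 and 134 CPM in peach libraries 1, 3 and 4. The hybrid mean, 213 ± 26.8 CPM (SD, n = 3), was above those of almond, 200 ± 21.8 CPM, and peach, 168 ± 35.8 CPM, but the ranges overlapped. The ratio of the hybrid to almond was 1.06 (0.815 to 1.39) and that of the hybrid to peach was 1.27 (0.970 to 1.66), with adjusted p of 0.816 and 0.262 in the edgeR test. The ratio of peach to almond was 0.840 (0.642 to 1.10, adjusted p = 0.306 in the edgeR test).

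**Figure D3:**
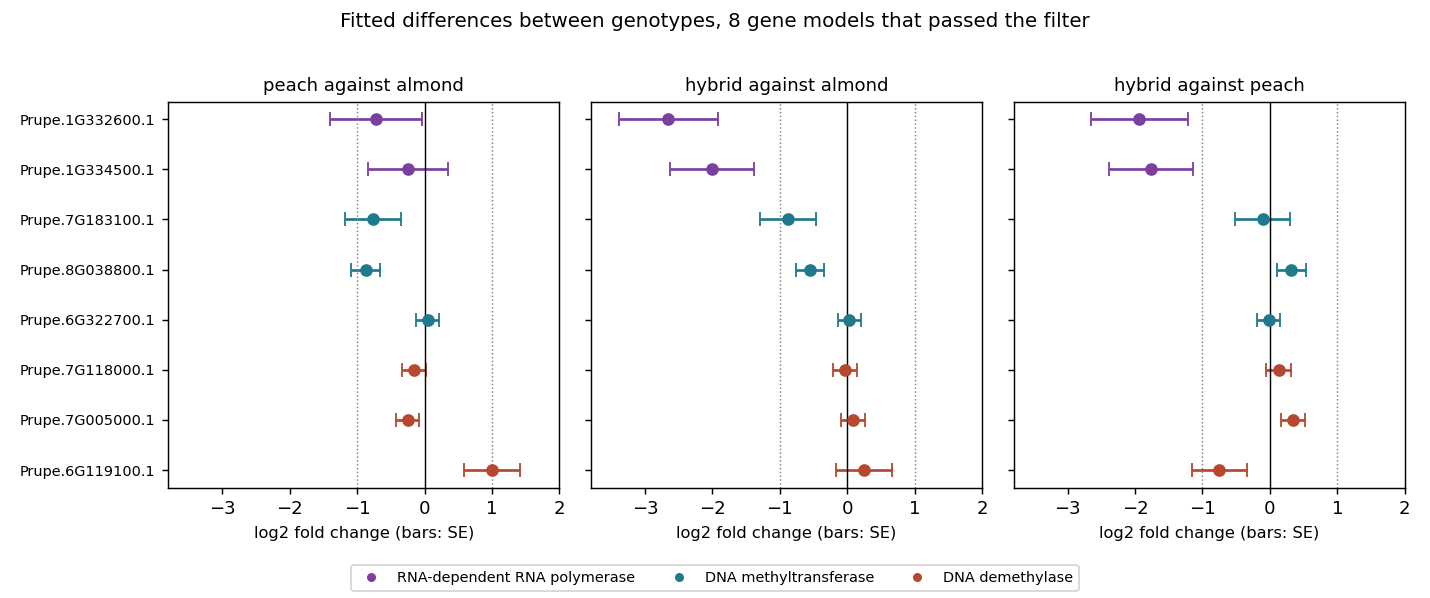
Fitted log2 fold changes of the 8 gene models that passed the filter are shown for the 3 comparisons of genotypes, with bars of 1 SE and dotted lines at the minimum fold change of 1 on the log2 scale. The polymerase models lie at −2.65 and −2.01 in the hybrid against almond, whereas the 6 methyltransferase and demethylase models lie between −0.88 and 0.25 there.

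Without overlap between libraries, 2 of the 9 models were higher in peach than in almond (23.5% of all features were) and 1 was lower (21.9%). Of the 7 methyltransferase and demethylase models, 2 had each hybrid library below each peach library (16.3% of all features) and 0 were higher (16.6%), while 0 of the 7 separated the hybrid from almond (32.2% of all features in either direction). Both counts of 2 include Prupe.6G011600.1, which did not pass the filter, while the shares cover only features that did. Under the rule for a call, 0 of the 8 models tested were called between peach and almond, where 21.5% of all features were. Of the 6 methyltransferase and demethylase models tested, 0 were called between the hybrid and almond, where 7.61% of all features were. Between the hybrid and peach 0 were called, where 7.51% of all features were, and 0 against the parental mean of log2 values, where 3.97% were. With so few models, counts of 0 are near these shares in the comparisons with the hybrid. DESeq2 also called 0 in each comparison. At an unadjusted p under 0.05, edgeR found 2 models between peach and almond (Prupe.8G038800.1 and Prupe.6G119100.1), 1 between the hybrid and almond (Prupe.8G038800.1), and 0 in the other comparisons with the hybrid. DESeq2 found the same numbers, except that Prupe.7G183100.1 also passed between the hybrid and almond, where it found 2. The shares of all features at an unadjusted p under 0.05 are not given here, so these counts are a description. At the stricter adjusted p under 0.05 at any fold, edgeR found 32.7% of all features between peach and almond. Between the hybrid and almond it found 2056 of 19085.

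Over the 6 methyltransferase and demethylase models that were tested, the median log2 fold change was −0.20 for peach against almond, and the values ranged from −0.87 to 0.9999. Against the mean of the parents, the hybrid values ranged from −0.49 to 0.22, with 3 above 0 and 3 below and a median of −0.06, beside a median of 0.04 over all 19085 features. Of these 6 values, those of Prupe.6G322700.1, Prupe.7G118000.1, Prupe.8G038800.1 and Prupe.6G119100.1 changed sign in some alternatives. By its mean CPM the hybrid lay between the parents for Prupe.6G011600.1, Prupe.8G038800.1, Prupe.6G322700.1, Prupe.7G118000.1 and Prupe.6G119100.1. It lay below both parents for Prupe.7G183100.1 and the polymerase models, and above both for Prupe.7G005000.1.

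The order of the genotype means differed between the models. Almond was the highest for both polymerase models and for Prupe.7G183100.1, Prupe.8G038800.1 and Prupe.7G118000.1, whereas peach was the highest for Prupe.6G011600.1, Prupe.6G322700.1 and Prupe.6G119100.1, and the hybrid for Prupe.7G005000.1. Libraries of genotypes next to each other in these orders overlapped, except for the hybrid and peach in both polymerase models, in Prupe.6G011600.1 and in Prupe.6G119100.1. The summed level of the 4 methyltransferase models was 112 ± 9.37 CPM in almond, with 100 ± 10.3 CPM in the hybrid and 97.6 ± 14.1 CPM for peach. In the 3 demethylase models together it was 307 ± 49.3, 319 ± 28.9 and 267 ± 41.9 CPM (SD, n = 3), in the same order. The ranges of the 3 genotypes overlapped in both sums.

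The spread between libraries set how small a difference could be seen. The SD of log2 CPM within genotypes was 0.78 for Prupe.1G332600.1 and 0.70 for Prupe.1G334500.1, against 0.61 and 0.57 as the median of features of a similar level, within 0.5 on the log2 scale. It was 0.50 for Prupe.7G183100.1 and 0.49 for Prupe.6G119100.1, and between 0.21 and 0.29 for the 4 models with the most reads. Among features of a similar level, 74.9% had a smaller spread than Prupe.1G332600.1, and 68.8% had a smaller one than Prupe.8G038800.1.

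The deposited regularized log (rlog) values gave the same directions with smaller differences for the models with few reads. These values are on a log2 scale and are shrunken, more so where counts are low. The mean rlog value of Prupe.1G332600.1 was 5.89 ± 0.344 in almond, 5.09 ± 0.158 in the hybrid and 5.57 ± 0.422 in peach (SD, n = 3). The difference between the hybrid and almond was thus −0.80, or 30.2% of the fitted log2 fold change of −2.65. For Prupe.1G334500.1 it was −0.66, or 33.0% of the fitted value. For Prupe.7G005000.1, the model with the most reads, the difference between the hybrid and almond was 0.07, or 76.3% of the fitted 0.09. Between the hybrid and peach it was 0.30, or 87.6% of the fitted 0.34. Not all models with many reads had a high share. Against almond it was 43.7% for Prupe.7G118000.1 and 52.7% for Prupe.6G322700.1, whose fitted values were near 0 (−0.03 and 0.03).

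For Prupe.6G011600.1 the rlog values were 2.70 ± 0.0334 in almond, 2.71 ± 0.0623 in the hybrid and 2.96 ± 0.153 in peach. The difference of 0.26 between peach and almond stood beside a ratio of 18.05 between the mean CPM. Over all features whose fitted change between the hybrid and almond was 1 or more on the log2 scale, up or down, the rlog difference was in the median 14.5% of the fitted value for those under 5 CPM on average, and 83.5% for those of at least 50 CPM. A limma test on the rlog values called 0 of the models at the same thresholds, where it called 2092 of 22334 features between peach and almond. The minimum of 1 is applied there to shrunken differences, which models with few reads could hardly reach. The count of 0 therefore says little about those models. At any fold, 3 models passed an adjusted p of 0.05 between peach and almond in that limma test, and they were Prupe.6G011600.1, Prupe.8G038800.1 and Prupe.6G119100.1. The share of all features that passed limma at any fold is not given here. In the edgeR test at any fold it was 32.7%.

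**Figure D4:**
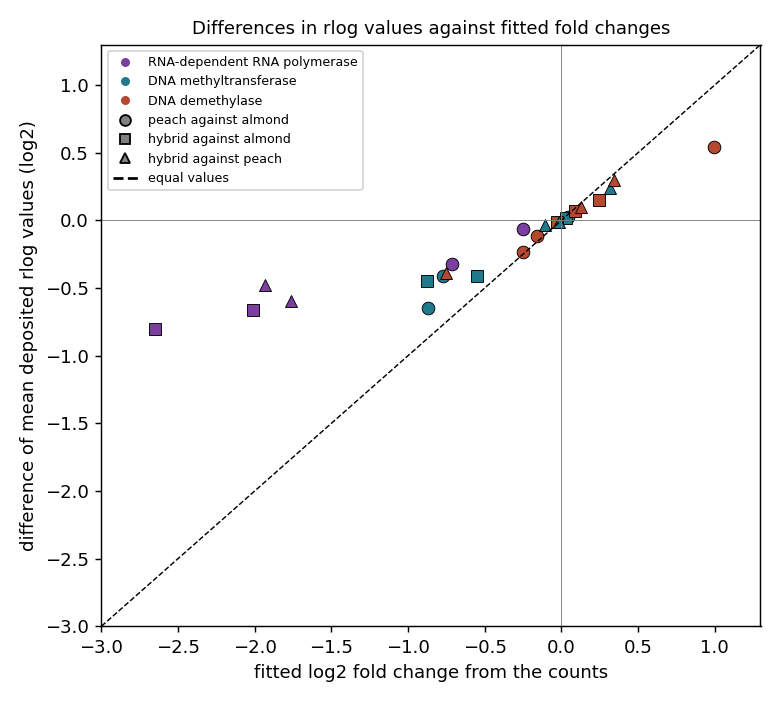
The difference between genotypes in mean deposited rlog value (log2 scale) is plotted against the log2 fold change fitted to the counts, for the 8 gene models in the fit and 3 comparisons of genotypes. The dashed line marks equal values. The polymerase models lie far from it in the comparisons with the hybrid, at −0.80 in rlog against −2.65 in the fit for Prupe.1G332600.1 against almond. Models with many reads lie nearer to the line, but their fitted changes are also nearer to 0, and not all of them have a high share.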

How the data were processed

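RNA-seq libraries of almond, hybrid and peach leaves (3 each) were compared. The counts were made by the authors, who used RSEM with Bowtie2 to align stranded read pairs to a set of peach transcripts and TE representatives of both species, kept sense reads and deposited whole numbers without normalization. Aligner versions are not given in the sources used here. Of these values 0 were odd, so a read pair was taken as 2 counts. In 1 line, 2 records were separated. The deposited log2 values are rlog values that the authors computed with DESeq2. The methylation tables were not used here.

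Features were filtered with filterByExpr, which left 19085 of 22334, and tested in R 4.3.3 with edgeR 4.0.16 (TMM, quasi-likelihood test, genotype as factor, all 9 libraries). TMM factors lay between 0.943 and 1.05. Intervals of 95% come from the fit. CPM were logged after adding 0.25 for correlations and spreads. Library totals were from 7485763 to 17725455 read pairs, and low totals limit precision as the intervals show. Replicates of a genotype differed by more than counting error (chi-squared per degree of freedom from 10.3 to 45.8). Figures were drawn with matplotlib 3.10.9.

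On a simulated table for the hybrid against almond (18672 features), edgeR called 53.3% of features changed by 1.5 on the log2 scale, 74.1% of those changed by 2, and 7 of 18480 unchanged ones, with 0 in the wrong direction. The changed features were drawn at random from all levels, so these rates are not those of models with few reads. All other features were set equal in the 3 genotypes, unlike in the data.

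Alternatives were DESeq2 1.42.0, limma 3.58.1 on rlog values, other scalings, filters and thresholds, fits of 2 genotypes, a replicate block, halved counts and leaving out each library. The members, lists and tests were chosen with earlier results of these data known. All 9 models are named, with the features most alike each polymerase model or called member. Gene lists by product name (small RNA pathway, senescence, pathogen response, leaf markers) were not analysed here, since the reference table used covers almond loci. Columns left unused: 0.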

Additional observations from a re-analysis of the deposited data

How the results depend on the processing

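The count of called methyltransferase and demethylase models stayed at 0 in the 3 comparisons with the hybrid under every alternative run. Some alternatives could hardly change a count of 0. These were the stricter adjusted p in the same fit, the test against the minimum fold change, and limma on shrunken rlog values. Between peach and almond the count was 1 with no minimum fold change (Prupe.8G038800.1), where 32.7% of all features passed. It ranged from 0 to 2 when 1 library was left out, with 2 (Prupe.8G038800.1 and Prupe.6G119100.1) without almond library 1. Over all features, 3912 were called without almond library 1, beside 4105 with all libraries. With so few models, the count of 2 is not read as a result about them. Fits without 1 library estimated the spread over the 3 genotypes together. The hybrid was lower than each parent in both polymerase models under all 18 alternatives. The study picked these models for this from the same libraries, so the kept direction is a description and adds no support.

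Values near 0 changed sign. For Prupe.6G322700.1, peach against almond was −0.028 with library totals alone and ranged from −0.11 to 0.19 when 1 library was left out. The hybrid against peach was 0.041 with library totals alone, 0.0013 in the fit of 2 genotypes, and −0.16 to 0.15 with 1 library left out. Against the mean of the parents it was −0.0017 with DESeq2, −0.0017 with RLE size factors, −0.0013 with at least 10 counts in every library of 1 genotype, −0.00068 with halved counts, −0.063 with the replicate block, and −0.065 to 0.12 with 1 library left out.

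Same-numbered libraries of different genotypes had correlations of their deviations between −0.084 and 0.20, and other pairs had values between −0.25 and 0.14. Deviations from means of 3 libraries cannot tell whether libraries with the same number were collected together. The replicate block changed no count of calls. Under the block Prupe.1G334500.1 was at 0.00042 in peach against almond and Prupe.7G183100.1 at 0.13 in the hybrid against peach.

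Of the remaining sign changes, all came from leaving out 1 library. The ranges were −0.70 to 0.52 for Prupe.1G334500.1 and −0.31 to 0.054 for Prupe.7G118000.1 in peach against almond. They were −0.18 to 0.20 for Prupe.7G118000.1 and −0.080 to 0.75 for Prupe.6G119100.1 in the hybrid against almond, and −0.35 to 0.28 for Prupe.7G183100.1 in the hybrid against peach. Against the mean of the parents they were −0.19 to 0.0076 for Prupe.8G038800.1, −0.024 to 0.18 for Prupe.7G118000.1 and −0.41 to 0.012 for Prupe.6G119100.1. The causes were not tested. Depth limits Prupe.6G011600.1 and the polymerase models most, since they rest on the fewest reads, followed by Prupe.7G183100.1 and Prupe.6G119100.1.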
